A study of Felis catus with 3 samples.

Results

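Transcript levels of 8 antioxidant enzyme genes were examined in noninduced feline adipose-derived mesenchymal stem cells (ASCs), the stromal cells that grow out of adipose tissue in culture. The genes were SOD1, SOD2, PRDX2, CAT, GSR, GSS, TXN2 and TXNRD2. They were taken from a list of symbols, and each matched 1 Ensembl identifier in the study's gene table, so that all 8 were found among the 21529 genes measured. The study held 1 group, in which 3 primary ASC cultures from 3 different cats were grown at passages 3 to 4 without treatment in MEM-alpha medium with 10% fetal bovine serum, L-glutamine and antibiotics. Each culture, here Feline ASC 1, Feline ASC 2 and Feline ASC 3, was sequenced as 1 poly-adenylated RNA library from 200 ng of total RNA. The donor cats of the study were specific pathogen-free or client-owned, and the age, sex and origin of the cat behind each line were not given in the sources used here. With a single library for each line, repeat error within a line is unknown, and every SD below is a spread between cats that also holds technical error.

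Cells dispose of reactive oxygen in steps. Superoxide dismutases turn superoxide, a by-product of mitochondrial respiration, into hydrogen peroxide, which catalase and the peroxiredoxins turn into water. Peroxiredoxins and glutathione peroxidases draw their electrons from thioredoxin or glutathione, and glutathione reductase and the thioredoxin reductases restore these carriers at the expense of NADPH. Several steps are carried out by separate enzymes in the cytosol and in the mitochondrial matrix, while catalase works mainly in peroxisomes.

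Expression was given as FPKM, a fragment count scaled both to the length of the transcript and to the size of the library. Levels in this unit can therefore be set side by side between genes, but only as far as the transcript lengths assigned to them are right. Errors in length and other differences between genes in how well they are measured were not tested. The values summed to 621797 to 688297 in the 3 lines and were above 0 for 14151 to 14356 genes. Fragment counts behind single values are unknown, but steps in the lowest values put the worth of 1 fragment at 0.911 in Feline ASC 1 relative to Feline ASC 2, with 59.3% of 663 low genes on these steps. Relative to Feline ASC 3, the worth of 1 fragment was put at 1.28 in Feline ASC 1 and 1.41 in Feline ASC 2. Fewer low genes lay on these steps, 31.1% for Feline ASC 1 and 25.5% for Feline ASC 2. Of the 25 cell type markers considered, 7 had an identifier. The stromal markers ENG and COL5A1 stood at 72.5 to 480 FPKM, whereas the 4 leukocyte markers CD14, CORO1A, CD2 and ITGB2 and the endothelial receptor TEK did not exceed 1.03 FPKM in any line. CD2 was listed at 0 in all lines. Symbols were paired with only 1811 of the 21529 genes in the part of the gene table used, so the remaining defining markers were not analysed here and the cell type was checked only in part.

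In every line, 7 of the 8 enzymes had a level of at least 15 FPKM, which 22.1% of all 21529 genes also had. The exception was TXNRD2. PRDX2 alone had at least 100 FPKM throughout, as did 3.59% of all genes. The median of the 8 mean levels was 31.2 FPKM, compared with 13.9 FPKM over the 11231 genes with a mean of at least 1 FPKM, which serve as the expressed genes below. The mean levels spanned a 15.7 ± 2.87-fold range from PRDX2 to TXNRD2 (mean ± SD of the ratio in 3 lines).

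**Figure D1:**
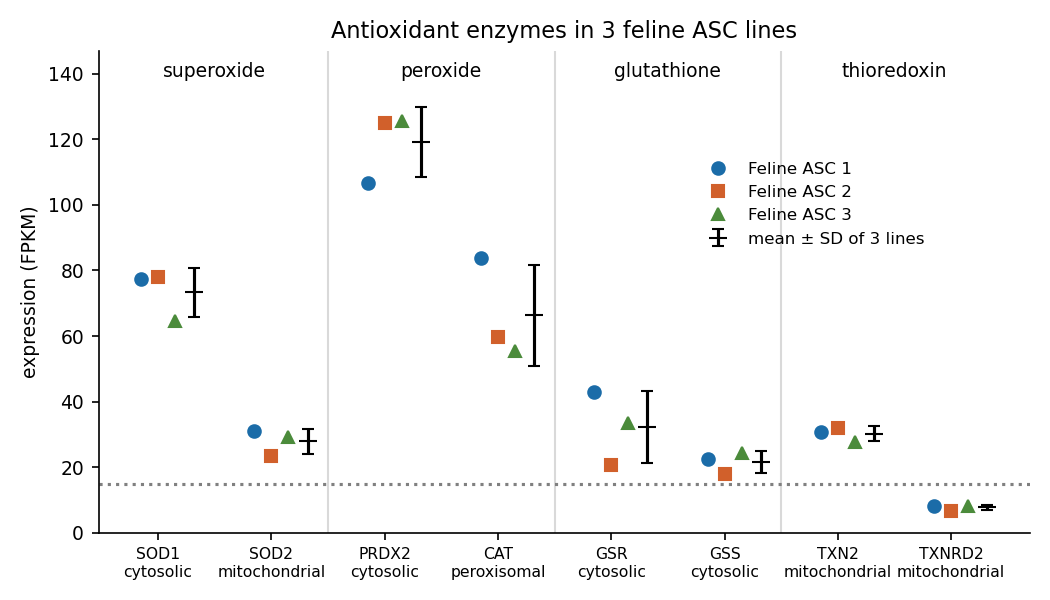
Expression in FPKM (vertical axis, linear) of the 8 enzymes in Feline ASC 1 (circles), 2 (squares) and 3 (triangles), with the mean ± SD of the 3 lines in black and a dotted line at 15 FPKM. PRDX2 lay between 107 and 126 FPKM, above every other enzyme in every line, and TXNRD2 lay below 15 FPKM in all lines.

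SOD1, the copper-zinc dismutase of the cytosol and the mitochondrial intermembrane space (ENSFCAG00000002225, Felis Catus 8.0 chromosome C2, 13290963 to 13299343), was expressed at 77.3, 78.1 and 64.7 FPKM in Feline ASC 1, 2 and 3. Feline ASC 3 was thus the low line, and the other two were nearly equal. The mean was 73.3 ± 7.51 FPKM (SD, n = 3 lines), which placed SOD1 above 87.2 to 89.4% of the expressed genes. SOD2, the manganese dismutase of the mitochondrial matrix (ENSFCAG00000002843, chromosome B2, 145782510 to 145792128), had 31.0, 23.5 and 29.1 FPKM, with Feline ASC 2 lowest. Its mean was 27.9 ± 3.89 FPKM, and no SOD2 value came near the lowest SOD1 value. Within a line, the SOD1 level was 2.50, 3.32 and 2.22 times that of SOD2.

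In the peroxide arm, PRDX2, a cytosolic peroxiredoxin that takes electrons from thioredoxin (ENSFCAG00000000473, chromosome A2, 8877376 to 8879779), reached 107, 125 and 126 FPKM, with Feline ASC 1 lowest. The mean was 119 ± 10.7 FPKM, and PRDX2 stood above 92.6 to 93.7% of the expressed genes. CAT, the heme catalase of peroxisomes (ENSFCAG00000002030, chromosome D1, 90314710 to 90352295), had 83.9, 59.6 and 55.3 FPKM and a mean of 66.3 ± 15.4 FPKM. For CAT, Feline ASC 1 was the high line and the other two lay close together, the reverse of the arrangement for PRDX2. The CAT to PRDX2 ratio was therefore highest in Feline ASC 1, with 0.786, and was 0.477 and 0.440 in the other lines. CAT and SOD1 could not be ordered, since CAT was the higher in Feline ASC 1 and the lower in the other two lines.

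In the glutathione arm, GSR, the reductase that regenerates glutathione from its disulfide (ENSFCAG00000001476, chromosome B1, 26753241 to 26782436), was expressed at 42.8, 20.7 and 33.4 FPKM. Feline ASC 1 was the highest and Feline ASC 2 the lowest, with about 12.6 FPKM between Feline ASC 2 and its nearest line. The mean was 32.3 ± 11.1 FPKM, the widest relative spread of the 8 enzymes, with a coefficient of variation of 34.2%. GSR stood above 80.6% of the expressed genes in Feline ASC 1 but above 62.8% of them in Feline ASC 2. Of the 13 stromal markers considered, only COL5A1 and ENG had an identifier, and both were highest in Feline ASC 2, where GSR was lowest. COL5A1 had 480 FPKM there against 178 and 261 FPKM, and ENG had 117 FPKM against 72.5 and 73.9 FPKM. The share of expressed genes highest in Feline ASC 2 was not computed. The 4 leukocyte markers summed to 1.96, 0.598 and 0.909 FPKM, nearly all of it from CD14 and CORO1A, which did not exceed 1.03 FPKM. This sum was highest in Feline ASC 1, as GSR was, and as 29.7% of the expressed genes were. The part of either group of markers in the GSR levels was not tested. In RNA from whole cultures, a smaller share of cells that express a gene and less of its RNA in each cell cannot be told apart. GSS, the synthetase that completes the glutathione tripeptide (ENSFCAG00000002310, chromosome A3, 24055929 to 24082618), had 22.6, 17.8 and 24.4 FPKM, again lowest in Feline ASC 2. Its mean was 21.6 ± 3.39 FPKM, and GSR exceeded it 1.90-, 1.16- and 1.37-fold within a line.

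In the thioredoxin arm both enzymes were mitochondrial. TXN2, the thioredoxin of the matrix (ENSFCAG00000001127, chromosome B4, 132691864 to 132703834), had 30.9, 32.1 and 27.6 FPKM and the smallest coefficient of variation of the 8 enzymes, 7.62%. TXNRD2, the selenium-containing reductase that serves TXN2 (ENSFCAG00000002682, chromosome D3, 27129506 to 27176616), had 8.28, 6.70 and 8.14 FPKM, with a mean of 7.71 ± 0.87 FPKM, and was the lowest enzyme in every line, above 29.1 to 34.7% of the expressed genes. The thioredoxin was thus expressed 3.73, 4.78 and 3.39 times as highly as its reductase, in terms of FPKM.

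When neighbours in the order of the means were compared, PRDX2 was above SOD1, CAT above GSR and GSS above TXNRD2 in all 3 lines with no overlap of their values. The values of SOD1 and CAT, of GSR and TXN2, of TXN2 and SOD2 and of SOD2 and GSS overlapped, although SOD2 was above GSS within each line. For the pairs SOD1 and SOD2, CAT and PRDX2, GSR and GSS, and TXN2 and TXNRD2, the mean log2 ratio of FPKM + 1 was 1.37 ± 0.29, -0.86 ± 0.45, 0.51 ± 0.35 and 1.84 ± 0.23 (SD, n = 3 lines), with the same sign in 3 of 3 lines for each pair. An exact two-sided sign-flip permutation test over the lines gave p = 0.25 for each of the 4 pairs, 0.25 after Benjamini-Hochberg adjustment, and this is the smallest p that 3 lines allow.

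**Figure D2:**
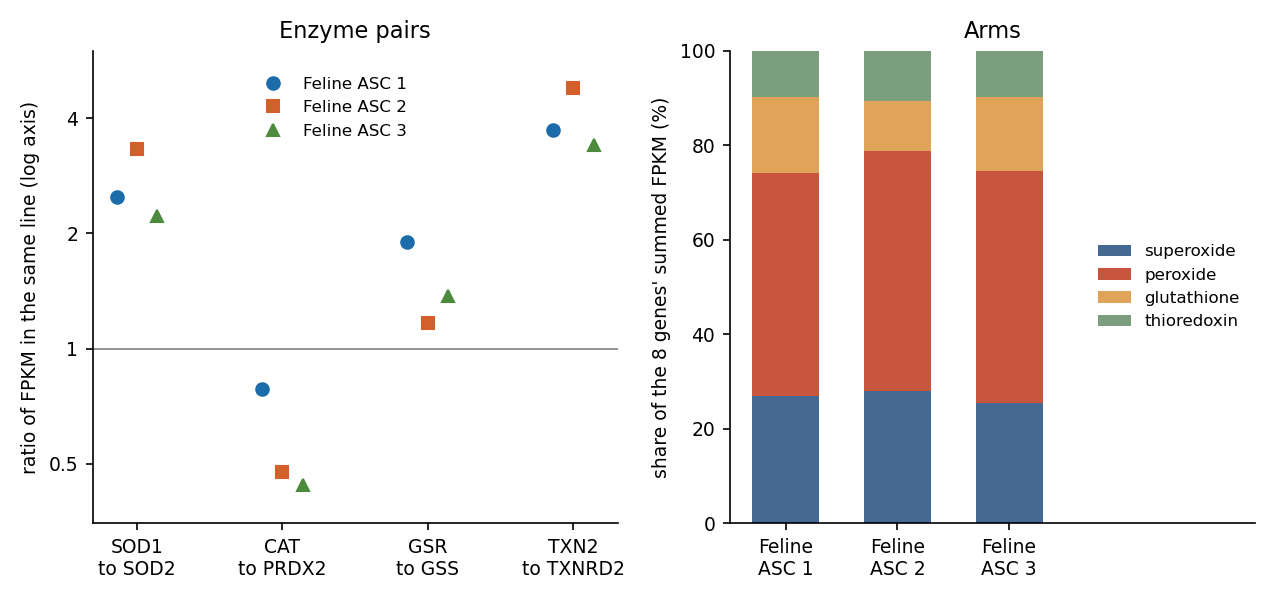
Left, the ratio of FPKM within a line for 4 pairs of enzymes (log axis, 1 marks equal levels), with a symbol for each line. CAT was below PRDX2 in all lines and closest to it in Feline ASC 1 (0.786). Right, the share of the summed FPKM of the 8 genes held by each arm (stacked bars to 100%). The glutathione share was 16.2% and 15.7% in Feline ASC 1 and 3 and 10.6% in Feline ASC 2.

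Cytosolic enzymes were, on average, expressed above mitochondrial ones. The mean level per gene was 62.4, 60.4 and 62.0 FPKM for the cytosolic enzymes PRDX2, SOD1, GSR and GSS, and 23.4, 20.8 and 21.6 FPKM for the mitochondrial enzymes SOD2, TXN2 and TXNRD2. Their ratio was 2.67, 2.91 and 2.87 in Feline ASC 1, 2 and 3, or 2.82 ± 0.13 (SD, n = 3 lines). GSR was counted as cytosolic, although its product is also made in a mitochondrial form. PRDX2 contributed most to the ratio, which was 1.93 without it. The order did not hold gene by gene, since GSS was below SOD2 and TXN2 in all lines and GSR was below both in Feline ASC 2. Of the 12 pairings of a cytosolic with a mitochondrial enzyme, the cytosolic one was higher in 10, 8 and 10. With 4 and 3 genes a group, these are descriptions of the genes listed and not of the compartments.

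By arm, the peroxide enzymes held 47.3, 50.8 and 49.1% of the summed FPKM of the 8 genes, the superoxide enzymes 26.8, 28.0 and 25.5%, the glutathione enzymes 16.2, 10.6 and 15.7%, and the thioredoxin enzymes 9.71, 10.7 and 9.71%. The peroxide and superoxide arms kept their places in each line. Together CAT and PRDX2 had 1.76, 1.82 and 1.93 times the summed FPKM of the dismutases. The glutathione and thioredoxin arms were distinct in Feline ASC 1 and 3, where their ratio was 1.67 and 1.62, but were nearly equal in Feline ASC 2 with a ratio of 0.995. These shares describe the genes listed and not whole arms, whose other genes were not in the sums. The thioredoxin genes listed were all mitochondrial and the glutathione genes were all counted as cytosolic, so arm and compartment cannot be told apart for them.

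Between the lines, the spread of the enzymes was close to that of expressed genes in general. The highest to lowest ratio of FPKM + 1 had a median of 1.25 over the 8 enzymes and 1.25 over the 11231 expressed genes. A ratio of 1.5 or more was found for 2 of the 8 enzymes, GSR with 2.01 and CAT with 1.51, and for 25.6% of the expressed genes. Ratios of 2 or more, which GSR alone of the enzymes reached, were found for 10.7% of them. The remaining 6 enzymes had ratios of 1.16 to 1.35. Leaving out the highest or the lowest line can lower such a ratio but cannot raise it. The GSR ratio was 1.58 without Feline ASC 1, 1.27 without Feline ASC 2 and 2.01 without Feline ASC 3. The CAT ratio was 1.08, 1.51 and 1.40 without Feline ASC 1, 2 and 3. Among the expressed genes, the share with a ratio of 1.5 or more was 8.16% without Feline ASC 2. That share was 18.0% without Feline ASC 1 and 18.3% without Feline ASC 3. No test of the differences between lines is possible with a single library for each line.

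**Figure D3:**
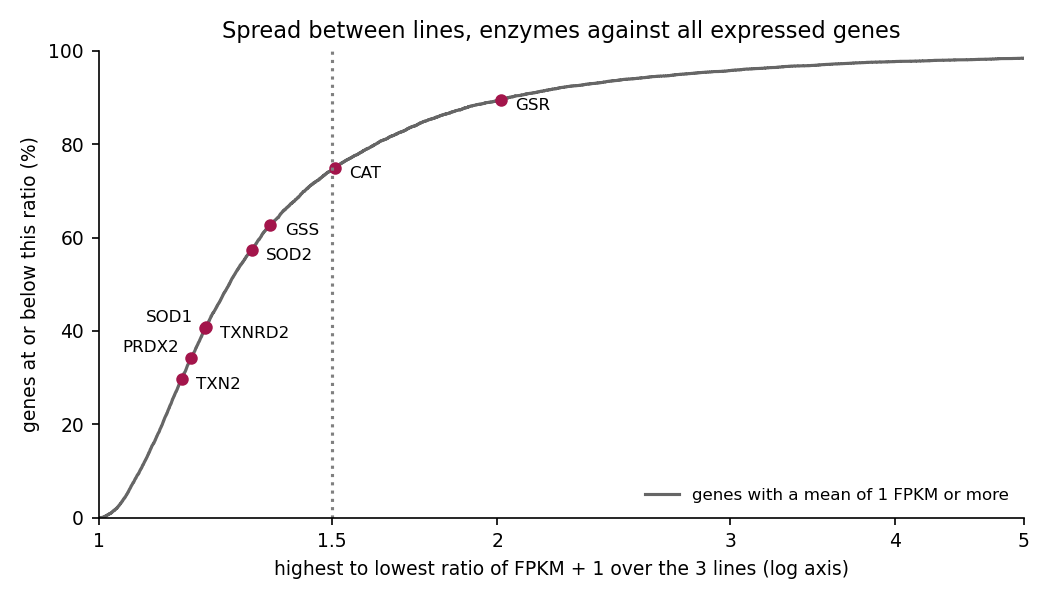
Cumulative share of the 11231 expressed genes (vertical axis, %) by their highest to lowest ratio of FPKM + 1 over the 3 lines (horizontal log axis), with the 8 enzymes as points on the curve and a dotted line at 1.5. The enzymes were spread along the curve from TXN2 (1.16) to GSR (2.01), and 89.5% of the expressed genes had a smaller ratio than GSR.

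The enzymes did not share 1 order of the lines. Feline ASC 1 was highest for 4 of them (SOD2, CAT, GSR and TXNRD2), and 29.7% of the expressed genes were highest there. Feline ASC 2 was lowest for 4 (SOD2, GSR, GSS and TXNRD2), against 37.0% of the expressed genes. By the 1.5-fold measure, Feline ASC 1 exceeded Feline ASC 2 for 1 enzyme, GSR, whose log2 difference in FPKM + 1 was 1.01, and for 9.28% of the expressed genes. CAT, SOD2, GSS and TXNRD2 had smaller log2 differences in the same direction, 0.49, 0.38, 0.32 and 0.27, while PRDX2 had -0.22. Some of the small differences depended on the scale. Scaling every line to the same total of 1000000 shifted the median log2 difference between Feline ASC 1 and 2 over the expressed genes from -0.02 to 0.12. It turned the direction of SOD1 and TXN2 between these lines and of CAT between Feline ASC 2 and 3, while the GSR difference was 1.16. On this scale 6 enzymes were highest in Feline ASC 1 and 5 lowest in Feline ASC 2, beside 41.1% and 52.7% of the expressed genes. Quantile normalization turned only SOD1 and gave 1.04 for GSR, with 5 enzymes highest in Feline ASC 1 and 4 lowest in Feline ASC 2, beside 29.6% and 39.3% of the expressed genes.

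**Figure D4:**
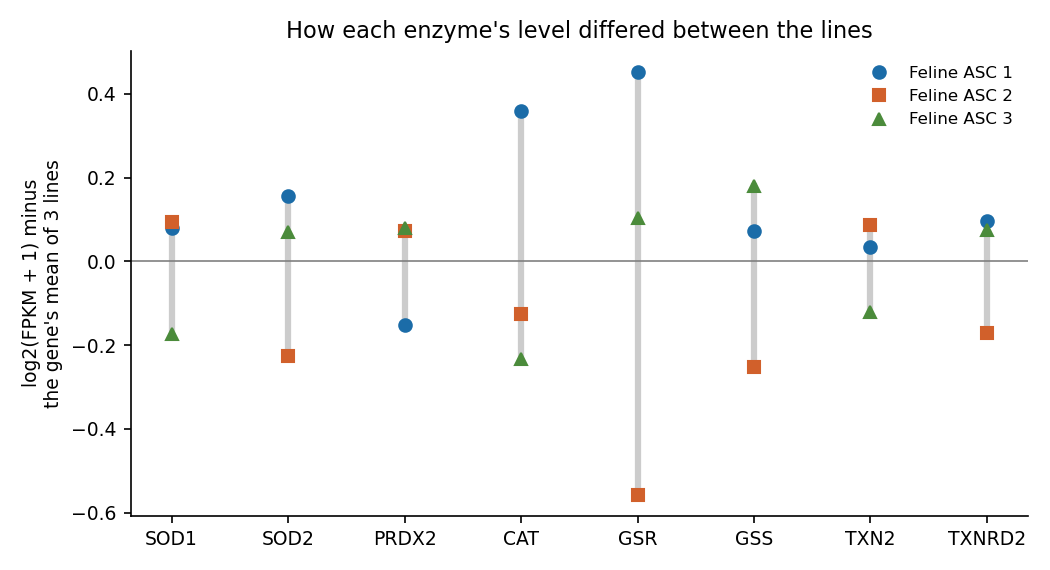
Deviation of each line's log2(FPKM + 1) from the gene's mean of the 3 lines (vertical axis, log2 units) for the 8 enzymes, with a symbol for each line and a grey bar from the lowest to the highest. GSR had the longest bar, with Feline ASC 1 at the top and Feline ASC 2 at the bottom, 1.01 apart, and PRDX2 was the only enzyme with Feline ASC 1 at the bottom.

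Of 45 further redox genes, 8 could be matched to an identifier. The 45 were chosen by function, but with earlier results of these data known, so the counts below only describe them. The others, among them the remaining peroxiredoxins, the glutathione peroxidases, the cytosolic thioredoxin and the glutamate-cysteine ligase subunits, were not analysed here, because only 1811 of the 21529 genes were paired with a symbol in the part of the gene table used. Among these 8, a level of at least 15 FPKM in every line was found for 5, beside the 22.1% of all genes given above. A ratio of 1.5 or more between lines was found for 0 of the 7 with a mean of at least 1 FPKM, beside 25.6% of the expressed genes. The oxidoreductase NXN, nucleoredoxin, had 104, 106 and 105 FPKM, nearly the same in all lines, and only 0.436% of the expressed genes had a smaller ratio than its 1.01. Its level was 3.29 to 3.82 times that of TXN2. ALDH1L2, a mitochondrial folate enzyme that yields NADPH, had 122, 143 and 134 FPKM, which was 3.93 to 6.06 times the level of SOD2 and above that of PRDX2 in each line. This mitochondrial gene thus stood above all cytosolic enzymes of the list.

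The other genes were lower. TMX1, a thioredoxin-related protein of the endoplasmic reticulum membrane, had 40.5, 33.0 and 42.4 FPKM. BLVRB, a biliverdin and flavin reductase, had 35.3, 29.4 and 27.7 FPKM. GGT7, of the gamma-glutamyltransferase family, had 27.1, 33.1 and 36.8 FPKM and was lowest in Feline ASC 1. GSS, which lay 55.0 kb away on chromosome A3, was instead lowest in Feline ASC 2. AIFM2, a coenzyme Q reductase, had 9.11, 11.7 and 8.63 FPKM. TXNRD3, a reductase of thioredoxin and glutathione related to TXNRD2, had 3.30, 2.96 and 3.10 FPKM, so that TXNRD2 was 2.26 to 2.62 times as high. NOX5, an oxidase that produces superoxide, was listed at 0 in every line.

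Positions are the loci assigned to each gene in the study's table, and 0 of the 8 enzymes overlapped another gene of the part of that table used here. In the RefSeq annotation of a later cat assembly, F.catus Fca126 mat1.0, each of the 8 symbols lay on the chromosome of its locus here. In that annotation SOD1 overlapped SCAF4 and GSR overlapped UBXN8. SCAF4 was expressed at 13.6 to 15.5 FPKM, below SOD1 in each line. The library kit kept strand, but whether strand was used in quantification was not given in the sources used here, so shared reads at these loci were not tested.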

How the data were processed

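RNA libraries from 3 noninduced feline ASC lines were sequenced by the authors with a strand-keeping mRNA kit (15 PCR cycles). According to the study's methods and the submitters' processing notes, base calls were converted with bcl2fastq, reads were aligned to ICGSC Felis Catus 8.0 with HISAT, and genes were quantified with Cufflinks and normalized across libraries with Cuffnorm. Versions of these programs, the annotation release and the Cuffnorm method were not given in the sources used here. The deposited values were FPKM per gene, 1 library for each line, and were used as deposited. They are not counts, so no intervals or detection floors are given.

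Line numbers followed the order of the samples, and each file equalled the same-numbered column of the study's gene table at all 1997 genes of the part used, which paired 1811 identifiers with symbols. Ratios between lines used FPKM + 1, a pseudocount that understates changes of low genes, over genes with a mean of at least 1 FPKM. Genes under 0.15 FPKM in both lines were used for relative depth, with a tolerance of 1%. Alternatives were a pseudocount of 0.1 or none, other thresholds and filters, TPM (every line scaled to a total of 1000000), quantile normalization and leaving out each line. The computations were run in Python 3.11.15 with numpy 2.4.6, pandas 2.3.3, scipy 1.17.1 and matplotlib 3.10.9. Only the ratios between lines and the scalings were tested on simulated data, which had less spread than these lines. The 8 enzymes and the other lists were chosen with earlier results of these data known. Named genes were the 8 enzymes, the redox and cell type marker genes with an identifier, and the 2 genes closest in level to each enzyme, plus SCAF4 and UBXN8, named after their overlap was seen. Planned protein and promoter features were not analysed here.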

Additional observations from a re-analysis of the deposited data

How the results depend on the processing

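The count of enzymes at 15 FPKM or more in every line (7) became 3 at 30 FPKM and stayed within 1.5 times under every other alternative, and the count with a 1.5-fold or larger ratio between lines (2) became 1 at 2-fold and 1 when any of the 3 lines was left out, by construction a comparison of fewer lines. The cytosolic to mitochondrial ratio (2.82) was 3.75 for sums over 4 and 3 genes, 2.64 for geometric means, 3.27 without GSR and 1.93 without PRDX2, above 1 in each case. The arm shares moved by less than 1 SD of the lines under quantile normalization. Leaving out 1 of 3 lines cannot move a mean by 1 SD of those lines, so it could not test the shares. The 4 pair ratios kept their sign under each alternative run. That was fixed in advance, since every line had the same sign and these alternatives cannot change which of 2 genes is higher in a line. The pair test could not have passed 0.05 in any of them. Over the expressed genes, the count with a ratio of 1.5 or more (2873, 25.6%) was 913 (8.16%) without Feline ASC 2. Among genes with a mean of at least 15 FPKM it was 1099, or 20.6% of those genes, a share close to the 25.6%. Without a filter on low values the share was 15.5%. Rescaling to TPM raised every enzyme's mean level by more than its SD, since the FPKM sums were below 1000000. Depth is known only relatively, so the counting error of low genes such as TXNRD2 and TXNRD3 is unknown. No paired comparison between groups was possible because there was 1 group.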

Other observations

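Among the 1811 genes with a symbol, those closest in level to each enzyme were found by the largest log2 difference in FPKM + 1 over the 3 lines, a measure that rests on 3 values a gene. SCARB2, a lysosomal membrane protein, was closest to GSR, with 40.7, 19.2 and 32.3 FPKM in Feline ASC 1, 2 and 3 and a largest log2 difference of 0.10, followed by FBXO6 with 0.23. The largest log2 difference of the closest gene was 0.02 for GSS (FZR1), 0.03 for SOD2 (USE1), 0.07 for TXNRD2 (CYP4B1), 0.08 for TXN2 (MRPS22), 0.10 for PRDX2 (UQCRC1) and 0.11 for SOD1 (GOLPH3). The next were PISD, BIN1, TAF3, SMARCA2, ACLY and ATP2B4, in the same order of enzymes. CAT had the least similar neighbours, JAK1 with 0.22 and SF3B5 with 0.26. JAK1, a kinase of cytokine signalling, had 88.1, 50.9 and 60.4 FPKM, highest in Feline ASC 1 as CAT was, but lowest in Feline ASC 2.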
